A study of Bos grunniens with 12 samples.

Results

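The antimicrobial peptide genes of the yak testis are 10 genes of the deposited gene table, out of 20953 in all. They were chosen by their annotation and their mean level, as the rows whose Gene Ontology (GO) annotation holds the term for a humoral antimicrobial response carried by peptides and whose FPKM averaged at least 0.5 over the input libraries. FPKM counts the fragments of a gene per kilobase of transcript and scales them to the mapped fragments of its library, so it can be compared between genes as a level per length. In all, 43 rows of the table hold the term, and 33 of them lay below that mean. The 10 members are CXCL9, CXCL10, CXCL11, LTF, F2, ROMO1 and the rows named IFFO1, ERICH5, DMRTC2 and OSTM1.

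Testes came from 6 healthy domesticated yaks (Bos grunniens), 3 of 1.5 years, taken by castration before sexual maturity, and 3 of 5 years, taken after it from animals that were killed (slaughtered in the record, euthanized in the article). Each testis gave an input library of poly(A) RNA fragments and a library of fragments pulled down with an antibody against N6-methyladenosine (m6A), and gene levels here are from the 6 input libraries. Age, way of collection and maturity changed together, so they cannot be told apart. Ages were taken from the sample titles, which match the ages in the record's growth protocol and in the methods of the article, whereas another field, on developmental stage, gives each sample the other stage; were that field right, every direction below would turn round. TNP1, a spermatid protein that replaces histones, had 871 ± 16.9 FPKM in the libraries labelled 1.5 years and 464 ± 232 FPKM in those labelled 5 years (SD, n = 3 each). Spermatids are the haploid germ cells formed by meiosis, and this gene of theirs was higher in the libraries labelled as before maturity, whereas the article describes germ cells beyond primary spermatocytes in the older testes only. Summed over 6 spermatid genes, the level was 1217 to 1271 FPKM at 1.5 years, and 281, 925 and 756 FPKM in 5-year replicates 1, 2 and 3. FPKM summed to between 116187 and 139921 per library, and how many fragments stand behind a value is unknown.

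Antimicrobial peptides are short, mostly cationic chains that damage microbial membranes, and in the male tract they are made by epithelia and by leukocytes. Some are dedicated defence products, such as lactoferrin and the defensins. Others are set free from proteins with another main task, among them chemokines, thrombin and ribosomal proteins, which is why one GO term spans such different genes. CXCL9, CXCL10 and CXCL11 are chemokines induced by interferon gamma; they attract activated T cells and natural killer cells through the receptor CXCR3, and their positively charged ends kill bacteria in culture.

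The symbol and the GO terms of a row named the same gene for 6 members and different genes for 4. The IFFO1 row is annotated to the activity of glyceraldehyde-3-phosphate dehydrogenase, an enzyme of glycolysis. The ERICH5 row is annotated to the large subunit of the cytosolic ribosome, and the DMRTC2 and OSTM1 rows to the small subunit. In the RefSeq annotation of the yak assembly Bosgru_T2T1.0, the next protein-coding gene beside IFFO1 is GAPDH, beside ERICH5 it is RPL30 and beside DMRTC2 it is RPS19. For OSTM1 no candidate neighbour was put to that check. Those 4 members are therefore called rows, with the symbol as deposited, and which gene their fragments came from was not tested.

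All 3 chemokine members stood higher at 5 years in every library than in any library of 1.5 years. CXCL9 (ENSBGRG00000015837) had 0.361, 0.485 and 0.830 FPKM in the 1.5-year replicates 1, 2 and 3, and 13.7, 3.28 and 6.96 FPKM in the 5-year replicates. The lowest 5-year value of CXCL9 was thus well above the highest 1.5-year value, and the means were 0.559 ± 0.243 and 7.99 ± 5.30 FPKM (SD, n = 3 each), a 14.3-fold difference. On log2(FPKM + 0.1), the scale of every log2 fold change given here, CXCL9 differed by 3.45 (SE 0.51, limma unadjusted p = 0.000243, adjusted p = 0.129), which stayed past both the p and the fold threshold in all 15 alternatives run. Fewer cells of a type and less RNA per cell cannot be told apart in such bulk tissue, which holds for each gene below.

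CXCL10 (ENSBGRG00000015786), whose protein draws the same cells, had 0.215, 0.465 and 0.910 FPKM at 1.5 years and 6.58, 1.14 and 3.86 FPKM at 5 years. The ages did not overlap, but the gap between the highest 1.5-year and the lowest 5-year library was small. The mean was 0.530 ± 0.352 against 3.86 ± 2.72 FPKM, 7.29-fold, and the log2 fold change was 2.50 (SE 0.67, limma unadjusted p = 0.00714, adjusted p = 0.154).

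CXCL11 (ENSBGRG00000015719), the ligand that binds CXCR3 most tightly, was the lowest of the chemokine members, with 0.175, 0.0550 and 0.271 FPKM at 1.5 years and 2.01, 0.524 and 0.384 FPKM at 5 years. The high 5-year mean rested on replicate 1, and the other 5-year libraries lay close to the top of the 1.5-year range. The log2 fold change of 1.78 (SE 0.66, limma unadjusted p = 0.0304, adjusted p = 0.171) fell to 1.13 without 5-year replicate 1, where the unadjusted p was 0.0788. Expressed in the lowest value of CXCL11 as a unit and allowing for the scale of each library, the values came to 3.04, 1 and 5.18 units at 1.5 years against 34.7, 9.28 and 7.03 units at 5 years, while whether 1 unit is 1 fragment was not shown.

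The sum of CXCL9, CXCL10 and CXCL11 was 0.751, 1.00 and 2.01 FPKM in the 1.5-year libraries and 22.3, 4.94 and 11.2 FPKM in the 5-year libraries. CXCL9 made up 41.3% to 48.3% of that sum at 1.5 years and 61.5% to 66.4% at 5 years, so its share was larger in each older testis. The share of CXCL10 overlapped between ages, with 28.7%, 46.3% and 45.2% against 29.5%, 23.0% and 34.5%. In RefSeq the genes follow each other in the order CXCL11, CXCL10, CXCL9, between ART3 and SDAD1.

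**Figure D1:**
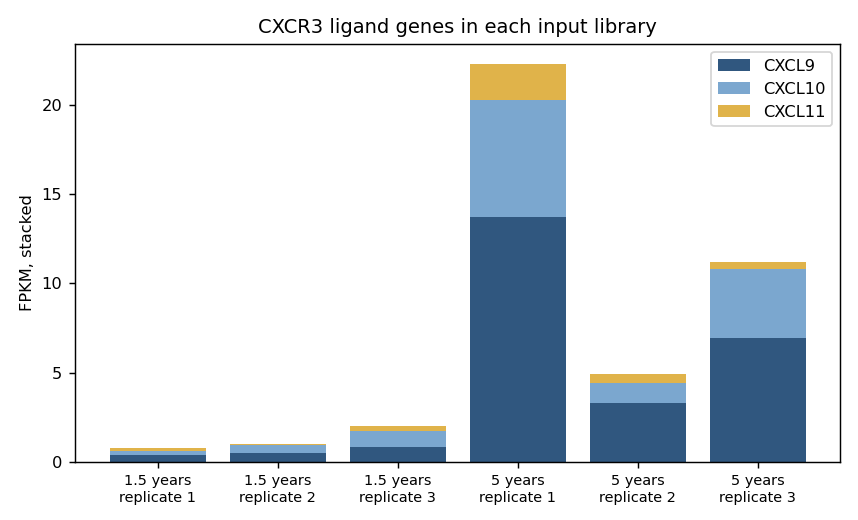
Stacked bars give the FPKM of CXCL9, CXCL10 and CXCL11 in each input library (vertical axis, FPKM; horizontal axis, library). The sums are 0.751 to 2.01 FPKM at 1.5 years and 4.94 to 22.3 FPKM at 5 years, with CXCL9 the largest piece of each bar except that of 1.5-year replicate 3.

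The receptor and the inducer of these chemokines had low levels; they and the factor next named were added after the values had been seen. CXCR3 had 0.0667, 0.0957 and 0.208 FPKM at 1.5 years and 0.491, 0.0945 and 0.339 FPKM at 5 years, below the mean needed for testing and with overlap between the ages. IFNG, interferon gamma itself, was listed at 0 in every 1.5-year library and at 0.140, 0.137 and 0.126 FPKM in the 5-year libraries. In units of its lowest value above 0 and allowing for the scale of each library, the 5-year values of IFNG were 1.05, 1.05 and 1, so all lay within a narrow band of that lowest value. IRF1, a transcription factor that interferon gamma induces, went from 2.63 ± 0.203 to 6.78 ± 2.22 FPKM (log2 fold change 1.29, SE 0.24, limma adjusted p = 0.154) with no overlap.

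LTF (ENSBGRG00000010521) encodes lactoferrin, an iron-binding protein of secretions and neutrophil granules that is cleaved to the bactericidal peptide lactoferricin. It had 1.23, 0.749 and 1.03 FPKM at 1.5 years and 3.24, 2.00 and 3.08 FPKM at 5 years. The replicates lay closer together than those of the chemokines and the ages did not overlap. The means were 1.00 ± 0.240 and 2.77 ± 0.671 FPKM, 2.77-fold apart, with a log2 fold change of 1.38 (SE 0.27, limma unadjusted p = 0.00121, adjusted p = 0.154) that ranged from 1.20 to 1.59 as each library was left out.

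F2 (ENSBGRG00000013793) encodes prothrombin, the clotting factor made mainly in liver whose thrombin chain yields peptides that bind bacterial lipopolysaccharide. It had 3.17, 4.17 and 4.76 FPKM at 1.5 years and 1.71, 4.52 and 3.28 FPKM at 5 years. F2 was the member whose ages overlapped, and its log2 fold change of -0.42 (SE 0.35, limma adjusted p = 0.449) did not pass the test.

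ROMO1 (ENSBGRG00000012641) encodes a small protein of the mitochondrial inner membrane that modulates reactive oxygen species and also permeabilises bacteria. Its 1.5-year libraries had 3.03, 48.6 and 1.86 FPKM, and its 5-year libraries 0, 0 and 0.793 FPKM. A single library, 1.5-year replicate 2, stood far above all others, so the mean of 17.8 ± 26.7 FPKM at 1.5 years describes none of the libraries. The ages still did not overlap, and the log2 fold change of -5.01 (SE 1.35, limma unadjusted p = 0.00717, adjusted p = 0.154) was -3.58 without that replicate. As 2 libraries were listed at 0, that value depends on the constant added to FPKM.

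Among the rows whose symbol and GO terms differ, the IFFO1 row (ENSBGRG00000001042) had 15.1, 18.7 and 16.8 FPKM at 1.5 years and 47.2, 24.4 and 38.5 FPKM at 5 years. All older libraries were above all younger ones, with means of 16.8 ± 1.81 and 36.7 ± 11.5 FPKM, 2.18-fold apart. The log2 fold change was 1.07 (SE 0.25, limma unadjusted p = 0.00361, adjusted p = 0.154), just past the threshold of 1, and it was 0.86 without 5-year replicate 1. GAPDHS, the form of the glycolytic enzyme that is restricted to spermatids and sperm, was named after its values were seen and went the other way, from 111 ± 3.46 to 52.3 ± 25.3 FPKM (log2 fold change -1.23, SE 0.40, limma adjusted p = 0.158).

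The ERICH5 row (ENSBGRG00000004783), with GO terms of a large-subunit ribosomal protein, was the most abundant member at 108, 105 and 112 FPKM at 1.5 years and 220, 124 and 134 FPKM at 5 years. The ages did not overlap, yet the older libraries were spread far wider than the younger ones, 159 ± 52.4 against 108 ± 3.19 FPKM. Its log2 fold change of 0.51 (SE 0.24, limma unadjusted p = 0.0736, adjusted p = 0.231) passed neither threshold, and without 5-year replicate 1 it was 0.25 with an unadjusted p of 0.0369.

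The DMRTC2 row (ENSBGRG00000014536), with GO terms of a small-subunit ribosomal protein, had 1.71, 1.68 and 1.89 FPKM at 1.5 years and 4.25, 2.74 and 4.59 FPKM at 5 years. All older libraries were higher, by 2.19-fold in the means of 1.76 ± 0.113 and 3.86 ± 0.986 FPKM. The log2 fold change of 1.06 (SE 0.22, limma unadjusted p = 0.00194, adjusted p = 0.154) dropped to 0.97 without 5-year replicate 1 and to 0.92 without 5-year replicate 3.

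The OSTM1 row (ENSBGRG00000006887), also with small-subunit terms, had 1.66, 0.789 and 0.787 FPKM at 1.5 years and was listed at 0 in all 5-year libraries. No ratio of means is given against values of 0. The log2 fold change behind its call as lower, -3.48, depends on the constant added to FPKM. The 1.5-year values equalled 2.01, 1 and 1.05 times the lowest of them after allowing for the scale of each library. Its limma unadjusted p was 0.000213 and its adjusted p 0.129, to which the 5-year values of 0 brought no spread.

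**Figure D2:**
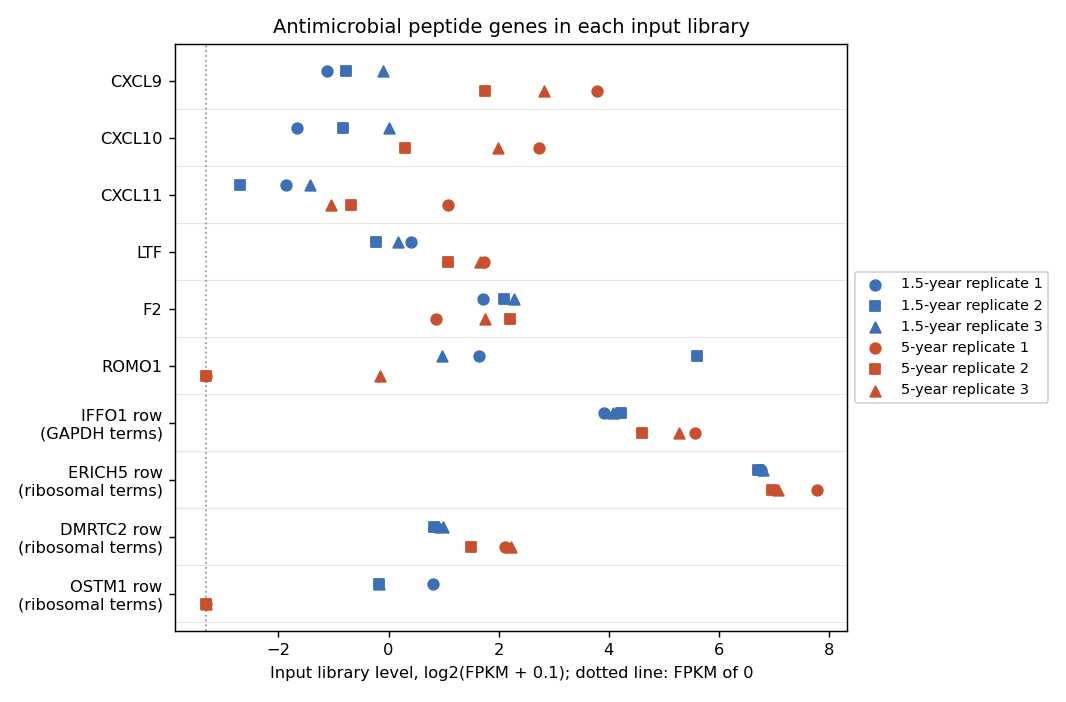
Each point is 1 input library of 1 member on the scale log2(FPKM + 0.1) (horizontal axis); blue marks 1.5 years, orange 5 years, the shape gives the replicate, and the dotted line is an FPKM of 0. The ages overlap for F2, and CXCL9 shows the widest gap among members that were above 0 in every library.

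Each of those symbols also stands on another row, and differences between the rows were not tested. The other IFFO1 row, with terms of an intermediate filament, had 2.34 ± 0.211 and 2.53 ± 0.620 FPKM, a log2 fold change of 0.08, and a further IFFO1 row was listed at 0 throughout. The other DMRTC2 row, with terms of a DNA-binding transcription factor, had 42.0 ± 1.06 and 35.6 ± 6.09 FPKM, a log2 fold change of -0.25. It was lower at 5 years with no overlap, opposite in direction to the row with the term. The other OSTM1 row had 7.94 ± 0.936 and 7.19 ± 1.05 FPKM, a log2 fold change of -0.15, and the other ERICH5 row averaged 0.162 and 0.318 FPKM with no overlap, in the same direction as the row with the term but below the mean needed for testing. None of the other rows tested passed the thresholds, and none of them holds the antimicrobial term. Several rows share a symbol for 3871 of the 13664 symbols deposited. Of 136 tested rows annotated to a cytosolic ribosomal subunit, counted after the values had been seen, 22 carry the symbol of a ribosomal protein and 114 another symbol. The median log2 fold change of these 136 rows was 0.44, against 0.04 for all genes. Of them, 13 passed the thresholds as higher and 2 as lower, beside 4.01% and 5.25% of all genes tested.

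**Figure D3:**
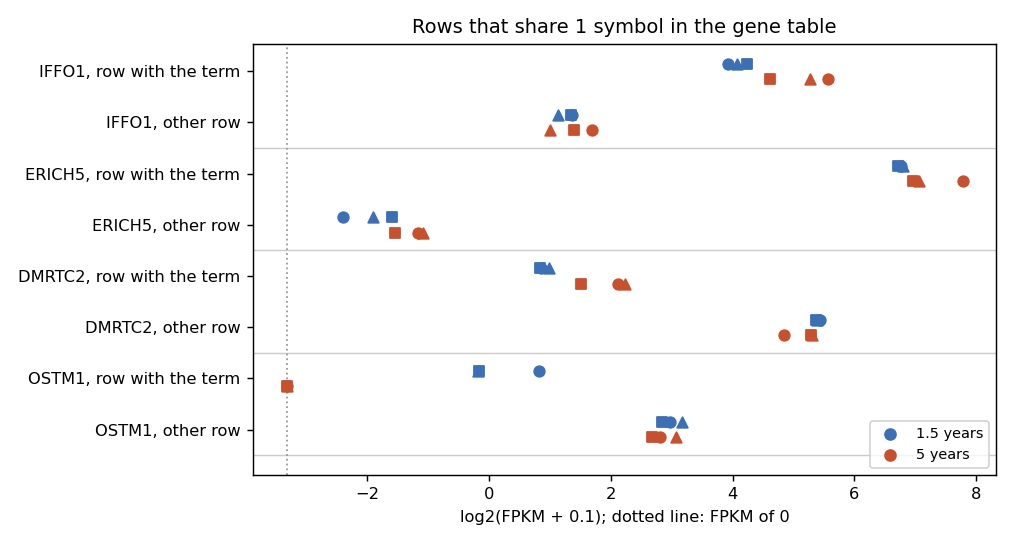
For the symbols IFFO1, ERICH5, DMRTC2 and OSTM1, the row with the antimicrobial term and the other row of the same symbol are plotted by library on log2(FPKM + 0.1) (blue, 1.5 years; orange, 5 years; circle, square and triangle, replicates 1, 2 and 3; dotted line, FPKM of 0). The rows with the term differ from the other rows of the symbol in level, with 108 against 0.162 FPKM for ERICH5 and 1.76 against 42.0 FPKM for DMRTC2 in the 1.5-year means.

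Ordered by the mean over the 6 libraries, the members ran from the ERICH5 row (134 FPKM) through the IFFO1 row (26.8), ROMO1 (9.05), CXCL9 (4.27), F2 (3.60), the DMRTC2 row (2.81), CXCL10 (2.20), LTF (1.89) and CXCL11 (0.569) to the OSTM1 row (0.539 FPKM). The ERICH5 row was the highest in every library and the IFFO1 row came next, except in 1.5-year replicate 2, where ROMO1 exceeded it. From ROMO1 down, the libraries of each member overlapped those of its neighbours in that order. The highest value of 6 members was in 5-year replicate 1 (CXCL9, CXCL10, CXCL11, LTF and the IFFO1 and ERICH5 rows), and 5-year replicate 2 held the lowest 5-year value of 6 as well, with the DMRTC2 row in place of CXCL11.

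Of the 10 members, 6 were higher and 2 lower at 5 years by the rule of an unadjusted p under 0.05 and a log2 fold change beyond 1, against 4.01% higher and 5.25% lower among the 12437 genes tested (9.26% in either direction). Those higher were CXCL9, CXCL10, CXCL11, LTF and the IFFO1 and DMRTC2 rows, and those lower were ROMO1 and the OSTM1 row. None had an adjusted p under 0.05 in limma, where 0.0322% of all genes did, and 8 had an unadjusted p under 0.05, where 25.1% of all genes did. The ages did not overlap for 9 members, 7 higher and 2 lower at 5 years, beside 33.7% of all genes (19.8% higher, 13.9% lower). The median log2 fold change of the members was 1.07, and that of all genes 0.04. Among the 6 members with 1 gene named by symbol and terms, 4 were higher and 1 lower, with a median of 1.58. These counts describe members picked with results of the same contrast known, and 3 members (CXCL11, ROMO1 and the OSTM1 row) averaged under 0.5 FPKM at 1 of the ages, so they passed the floor through the age where they were high. Without 5-year replicate 1 the rule took 3 members as higher (CXCL9, CXCL10 and LTF) and 2 as lower (ROMO1 and the OSTM1 row), while without 5-year replicate 2 the adjusted p was under 0.05 for 6 members and for 2403 genes in all.

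**Figure D4:**
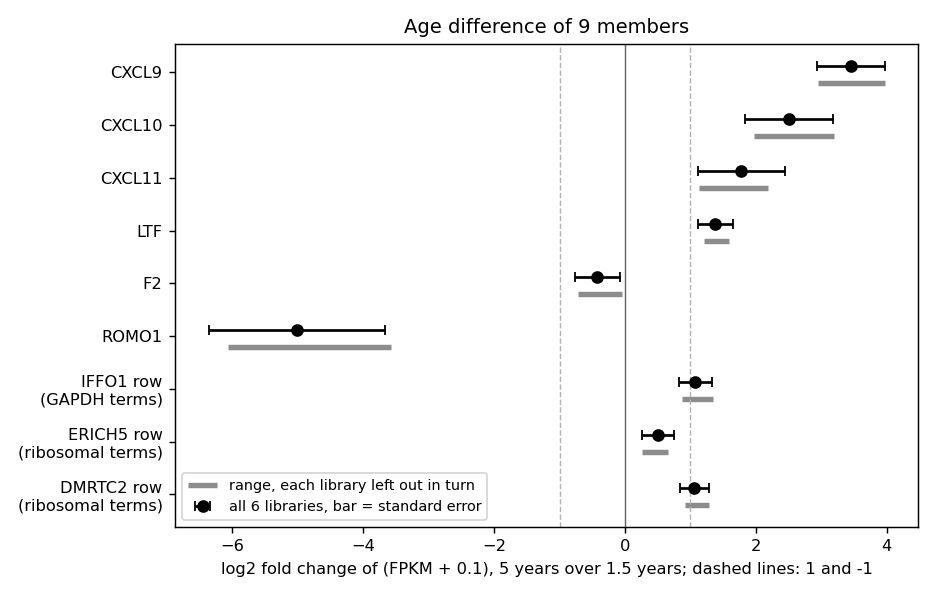
Points show the log2 fold change of 9 members at 5 over 1.5 years on log2(FPKM + 0.1) with bars of 1 standard error, and grey bars give the range when each library was left out in turn; the OSTM1 row, listed at 0 at 5 years, is not drawn. CXCL9 reaches 3.45, ROMO1 lies at -5.01 and F2 at -0.42.

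Of the 33 rows with the term that fell below a mean of 0.5 FPKM, 18 were listed at 0 in every library and 15 had some value above 0. Just below the floor stood the CARNMT1 row at a mean of 0.483 FPKM, all of it from 5-year replicate 3 at 2.90 FPKM, next to the OSTM1 row at 0.539 FPKM just above. Cathelicidins, the cattle family of antimicrobial peptides stored in neutrophils, stand on 7 rows named CATHL6, which reached a mean of 0.446 FPKM at most, with 3 of the rows above 0. CHGA, chromogranin A of endocrine granules, averaged 0.418 FPKM, and BPIFA1, a secreted protein of airway epithelium, 0.151 FPKM. PGLYRP3, a peptidoglycan receptor, averaged 0.0512 FPKM, and the chemokine CXCL14 0.0057 FPKM. CXCL8, which attracts neutrophils, the CXCL6 row with the term and the beta-defensin DEFB127 were listed at 0 in every library, while another CXCL6 row without the term had 0.235 to 0.397 FPKM.

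Of the rows for defensins and their relatives, the best known antimicrobial peptides of the male tract, some were lower at 5 years and none higher by the same rule. The table holds 12 such symbols outside the term, EDDM13 among them, of which 5 were tested and 3 were lower at 5 years by the rule. DEFB121 had 15.8, 17.2 and 12.6 FPKM at 1.5 years and 0.212, 2.32 and 1.71 FPKM at 5 years. Its older libraries were all far below the younger ones (log2 fold change -3.77, SE 0.71, limma unadjusted p = 0.00100, adjusted p = 0.154). DEFB123 averaged 9.75 ± 0.877 and 4.91 ± 1.60 FPKM (log2 fold change -1.02, SE 0.24, limma adjusted p = 0.154), again with no overlap. Both are annotated to defence against bacteria. The DEFB134 row, lower by 1.20 on the log2 scale, carries terms of a metallopeptidase of spermatogenesis instead. DEFB115 and DEFB108B had log2 fold changes of 0.14 and 0.09 and did not pass the test.

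Of 54 antimicrobial proteins listed, some of which hold the term, 19 had a row without it and 6 of these were tested. S100A12, a calcium-binding protein of granulocytes, was lower, from 7.39 ± 2.19 to 3.29 ± 0.992 FPKM (log2 fold change -1.15, SE 0.29, limma adjusted p = 0.154), and none was higher. SLPI and WFDC2, protease inhibitors of mucosal secretions, had log2 fold changes of 0.01 and -0.32 and did not pass. LGALS3 was lower with no overlap but short of the fold threshold (-0.71), while ELANE and PGLYRP4 overlapped (0.45 and 0.01). Of 39 chemokines listed, members included, 15 had a row outside the term and 5 of these were tested, none higher and 1 lower, the CCL21 row (log2 fold change -1.11, limma adjusted p = 0.177), whose GO terms are not those of a chemokine and whose ages overlapped. CCL27, the most abundant of those tested, was lower with no overlap but short of the fold threshold (log2 fold change -0.81, limma adjusted p = 0.154). The symbols of CCL27 and of the chemokines named next were taken as deposited. CXCL12, the stromal chemokine, CCL14 and CCL17 had log2 fold changes of 0.61, 0.98 and 0.28 that did not pass, with overlap. None of the 6 chemokine receptors tested of 23 listed passed either. Among receptors below the mean needed for testing, CX3CR1 (means of 0.0375 and 0.553 FPKM) and CXCR6 (0.147 and 0.452 FPKM) were higher at 5 years with no overlap. CXCR5 was lower with no overlap (0.215 and 0.0215 FPKM). Of the chemokines below that mean, CCL11 was higher with no overlap (0.0178 and 0.174 FPKM), while CCL5 and CCL19 had higher means at 5 years but overlapped.

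Some genes of leukocytes stood higher beside the chemokines; the symbols of these lists were taken as deposited. Of 6 leukocyte genes, 4 were higher, with log2 fold changes of 1.71 for LAPTM5, 1.55 for PTPRC, 1.50 for CD48 and 1.37 for CD53, but CD52 went the other way with no overlap (log2 fold change -0.93, limma adjusted p = 0.154), short of the fold threshold. The summed level of the list overlapped (35.6 to 42.5 against 32.7 to 43.4 FPKM), with CORO1A its most abundant gene. Of the 3 tested genes of T and natural killer cells, NKG7 and PRF1 were higher (1.87 and 1.40), and the list summed to 1.43 to 3.33 FPKM at 1.5 years and 4.84 to 10.5 FPKM at 5 years, while CD3E, CD2, CD8A and GZMB had no row. Of 8 macrophage genes, C1QA, C1QB and C1QC were higher and AIF1 and CD163 lower, and the list summed to 29.0 to 37.0 against 42.5 to 49.8 FPKM. None of 2 neutrophil genes tested or of 2 B and plasma cell genes passed, and the neutrophil list summed to 1.38 to 2.36 against 1.72 to 2.46 FPKM with S100A9 and MMP9 listed at 0 in every library. Markers of blood cells summed to at most 0.825 FPKM in every library, from 1 gene with a row.

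**Figure D5:**
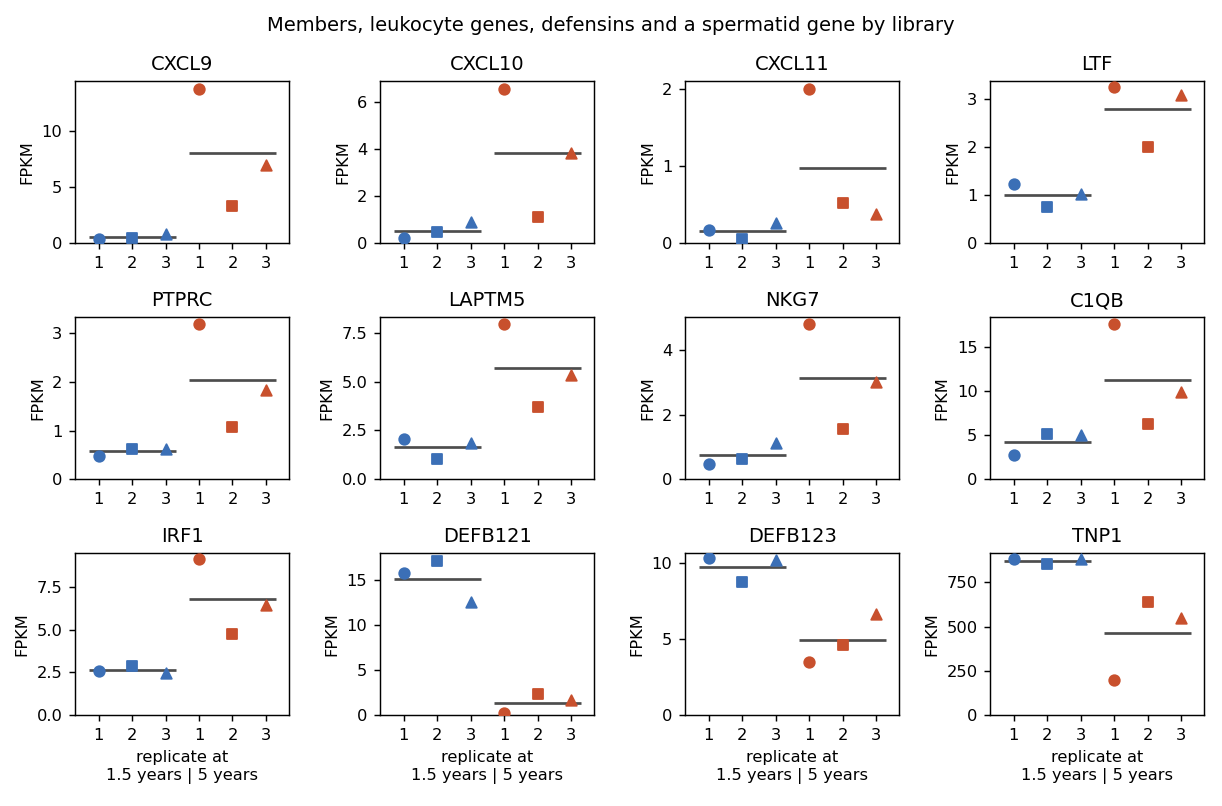
Panels give the FPKM in each input library (blue, 1.5 years; orange, 5 years; grey line, mean of the 3 libraries) for members, leukocyte genes, IRF1, defensins and TNP1. 5-year replicate 1 is the highest library for CXCL9 (13.7 FPKM) and PTPRC and the lowest for DEFB121 (0.212 FPKM) and TNP1.

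Among testicular cell types, 5 of 6 spermatid genes were lower (TNP1, HMGB4, GAPDHS, ODF1 and ACRV1), and no gene of the spermatogonial, spermatocyte, Sertoli cell or Leydig cell lists passed the rule. All 5 Sertoli cell genes with a row, of 8 listed, nevertheless had a limma unadjusted p under 0.05, beside 25.1% of all genes. Each was higher at 5 years with no overlap, beside 19.8% of all genes, at log2 fold changes of 0.60 to 0.95. Their sum, mostly INHA, was 71.9 to 83.9 FPKM at 1.5 years and 104 to 250 FPKM at 5 years. Spermatogonial genes summed to 50.4 to 58.5 against 58.8 to 111 FPKM. Leydig cell genes, of which 2 of 7 listed had a row, summed to 10.1 to 19.1 against 7.40 to 8.40 FPKM. STAR had a log2 fold change of -0.92, while CYP11A1 overlapped between the ages with a log2 fold change of 0.12. Of 8 peritubular and stromal genes COL3A1 and DCN were higher, with sums of 29.5 to 34.5 against 45.8 to 73.4 FPKM. Of 6 endothelial genes CLDN5 was higher, from 4.29 to 8.99 FPKM in the means, and ENG did not overlap (log2 fold change 0.42). VWF, KDR, TEK and PECAM1 overlapped, with log2 fold changes from -0.09 to 0.29. The endothelial list summed to 12.2 to 17.9 against 18.3 to 25.0 FPKM. Genes of the epididymis, where many defensins are made, summed to 7.33 to 10.2 against 6.33 to 9.15 FPKM and none passed. Within the 5-year group, replicate 1 had the lowest sums of spermatid, spermatocyte, Leydig cell, epididymal, and B and plasma cell genes. Of the last sum in that library, 49.2 of 50.0 FPKM came from CD79B. Replicate 1 had the highest sums of that group for every other cell type list, those of Sertoli, stromal and T and natural killer cells among them. It was also the library with the highest CXCL9, CXCL10, CXCL11 and LTF. The part of these cell types in the differences of the members was not tested.

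A single differential m6A peak between the ages fell on a member. It lies at chromosome 20, 64586184 to 64586332 (LU_Bosgru_v3.0), is 149 bp wide and is annotated to the 5′ UTR of the DMRTC2 row, a gene that spans 64585837 to 64593682. The peak table holds no fold change and no p-value. Of the 12437 genes tested, 1156 (9.29%) carry such a peak, so 1 of 10 members is near that share.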

How the data were processed

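The authors trimmed reads with Trimmomatic, removed ribosomal RNA reads with SortMeRNA and aligned with HISAT2 2.0.4 to the LU_Bosgru_v3.0 genome, where only reads with a unique position stayed. FPKM values, deposited by the authors for each gene and input library, were used as they stand; the program behind them is not given in the sources used here. Peaks were called and compared by the authors with MeTDiff, and peak widths in bp are as deposited; the peak lists of single groups were not used here.

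The 6 input libraries (3 of each age, 1 per animal) entered a linear model in limma 3.58.1 under R 4.3.3, with trended eBayes variances. The model took log2(FPKM + 0.1) of 12437 genes whose FPKM averaged 0.5 or more. Tests were two-sided, and p-values were adjusted by Benjamini-Hochberg over all genes tested. A gene was taken as higher or lower at an unadjusted p under 0.05 and a log2 fold change beyond 1. A permutation test of 3 against 3 cannot go below p = 0.1 and was not run. Tables and plots were made with Python 3.11.15, pandas 2.3.3 and matplotlib 3.10.9, and the steps were tested on simulated data.

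The members, gene lists and tests were chosen with earlier results of these data known. The text names every member, rows below the floor by their range, and list genes past both thresholds, on the row with the highest mean where a symbol has several. GAPDHS, IRF1, CXCR3, IFNG, genes that did not pass and list genes below the floor were added after their values were seen. The alternatives were other pseudocounts, filters, scalings and eBayes forms, a replicate block and each library left out; the count over members with 1 gene named by symbol and terms was added after seeing the data. Replicate numbers did not pair the animals: the deviations of same-numbered libraries correlated at -0.0222, -0.0909 and 0.00668. No sequence is printed, since sequences were not analysed here.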

Additional observations from a re-analysis of the deposited data

How the results depend on the processing

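No member changed direction under the alternatives run. The count of members past both thresholds, 8, was 5 with a pseudocount of 1, 5 to 8 as each library was left out (5 without 5-year replicate 1) and 5 among the members whose symbol and GO terms name 1 gene; for the last set, chosen after seeing the data, the count without overlap was 5 in place of 9 and the median log2 fold change 1.58 in place of 1.07, from fewer members. The count with an adjusted p under 0.05, 0, was 1 (the OSTM1 row) with no filter and 1 (the OSTM1 row) with eBayes without the trend, and 0 to 6 as each library was left out, 6 without 5-year replicate 2. Of the fixed lists, 24 genes passed both thresholds, 12 with a pseudocount of 1 and 8 to 32 as each library was left out, 8 without 5-year replicate 1 and 14 without 1.5-year replicate 1. The cause was not tested.

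CXCL9, CXCL10, ROMO1, the ERICH5 row and F2 kept their side of the joint rule in all 15 alternatives, although the unadjusted p of the ERICH5 row was 0.0217 with quantile normalization, 0.0369 without 5-year replicate 1 and 0.0343 without 5-year replicate 2. CXCL11 missed the rule in 5 (log2 fold change 0.67 to 1.84), the DMRTC2 row in 4 (0.80 to 0.97), the IFFO1 row in 2 (0.86 to 0.99) and LTF in 1 (0.91, pseudocount of 1). The OSTM1 row passed the rule in all 14 alternatives that held it, which does not measure how firm its call is. All its 5-year libraries were listed at 0, so leaving 1 of them out kept the log2 fold change at -3.48. With a pseudocount of 1 the log2 fold change of the row was -1.03, and with a pseudocount of 0.01 it was -6.67. The OSTM1 row and CXCL11 fell below the floor where a mean of 1 FPKM was required. With the replicate block, 8 members passed both thresholds, 6 higher and 2 lower, and no call on a member changed; over all genes 1160 passed in place of 1152. Genes past both thresholds numbered 410 without 5-year replicate 1 and 2028 without 5-year replicate 2. With 3 animals per age and no fragment counts, values under about 1 FPKM, such as those of CXCL11 and the OSTM1 row, have unknown counting error.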
